A study of Mus musculus with 6 samples.

Results

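A set of 10 genes that mark or set the epithelial and mesenchymal states of a cell were followed in chemically induced cardiovascular progenitor cells (ciCPCs) of the mouse: the adhesion genes Cdh1 and Epcam, the keratin genes Krt8, Krt18 and Krt19, the N-cadherin gene Cdh2, and the repressor genes Snai1, Snai2, Zeb1 and Zeb2. They were chosen by name from the 53801 genes in the count files, and all 10 were counted in every library and passed the low-count filter. ciCPCs are made from fibroblasts with chemicals, picked as colonies and then expanded. Both groups carried no engineered allele (wild type; background, a mix of C57BL/6 and 129J/SvE), and both grew in a medium with the growth factors BMP4 and Activin A, CHIR99021, which inhibits glycogen synthase kinase, and SU5402, an FGF receptor inhibitor. One group was collected at passage 3 and the other at passage 20, with 3 libraries each, to learn how the cells change over long expansion. The labels do not say that the 3 libraries of a passage came from separate cultures, nor that both passages came from the same colonies, so that the p-values cover the spread among these libraries alone, which may be technical. Passage cannot be told apart from culture, harvest or library preparation.

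Epithelial cells are joined by E-cadherin (Cdh1) and EpCAM and carry a cytoskeleton of simple-epithelial keratins, in which the type II chain keratin 8 pairs with a type I chain, keratin 18 or 19. Mesenchymal cells carry N-cadherin (Cdh2) and vimentin instead. Snail (Snai1), Slug (Snai2), Zeb1 and Zeb2 are zinc finger proteins known to bind E-box sites such as CAGGTG and to repress Cdh1 and other epithelial genes during the epithelial to mesenchymal transition (EMT), a step of gastrulation, of neural crest formation and of the formation of heart valve and epicardial mesenchyme.

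The promoter windows below are shown because they belong to members that rose and hold that E-box, written in capitals as CAGGTG or, read on the other strand, CACCTG. They come from RefSeq on GRCm38.p6, where 5 of the 10 members matched by symbol (Epcam, Krt8, Krt18, Snai1 and Zeb2), and were cut to the bases upstream of every annotated exon of the gene.
Epcam, chr17:87635729-87635978, plus strand: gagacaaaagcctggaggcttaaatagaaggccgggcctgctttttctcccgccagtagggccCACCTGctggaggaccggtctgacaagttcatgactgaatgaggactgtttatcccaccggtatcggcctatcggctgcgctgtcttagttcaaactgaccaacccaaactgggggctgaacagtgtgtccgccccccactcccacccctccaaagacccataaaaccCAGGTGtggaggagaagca
Krt18, chr15:102027966-102028179, plus strand: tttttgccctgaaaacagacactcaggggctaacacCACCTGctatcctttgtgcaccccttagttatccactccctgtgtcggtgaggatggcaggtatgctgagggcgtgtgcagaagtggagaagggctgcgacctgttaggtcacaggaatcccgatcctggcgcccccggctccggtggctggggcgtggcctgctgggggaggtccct
Snai1, chr2:167537945-167538194, plus strand: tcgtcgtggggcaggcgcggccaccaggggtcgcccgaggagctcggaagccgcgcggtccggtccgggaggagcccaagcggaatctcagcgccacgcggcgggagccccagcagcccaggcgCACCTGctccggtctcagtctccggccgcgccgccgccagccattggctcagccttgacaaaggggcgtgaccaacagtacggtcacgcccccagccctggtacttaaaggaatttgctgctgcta
The Epcam window held 2 sites, starting 187 and 19 bases upstream of the RefSeq start. The Krt18 window held 1 site 214 bases upstream and the Snai1 window 1 site 126 bases upstream. The 250 bases upstream of the Krt8 start held 1 site, but the 110 bases left after the cut held 0. The 250 bases upstream of the first Zeb2 start held 0. The motif was searched on both strands, and CAGGTG and CACCTG are one site read from either side. Of 32851 such windows of 250 bases in the RefSeq table, 17.2% held it, and of windows cut to the 214 bases shown for Krt18 15.2% did. A match describes letters only, and no binding was measured.

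Total counts in genes ran from 13995799 to 17721788 at passage 3 and from 11387738 to 13285419 at passage 20. Replicates of a passage differed by more than sampling noise in every pair (chi-square per degree of freedom over genes with at least 20 counts in the pair, 1.75 to 2.63 at passage 3), and passage 20 replicate 3 stood apart from the other 2 libraries of its passage (8.72 and 10.6, against 2.04 between those 2). All 10 cardiac progenitor markers listed had counts in every library, 5 higher and 5 lower at passage 20 (37.0% and 37.3% over all genes tested). Gata4 rose 1.70-fold and Mef2c 2.68-fold, whereas Isl1 was 8.44-fold lower (63.2 to 7.45 CPM) and Tbx1 25.1-fold lower (577 to 14 counts). Levels are CPM, counts relative to library size after TMM scaling, which assumes that most genes do not change. Each p is from the quasi-likelihood test of edgeR, adjusted by Benjamini and Hochberg's method over all 15143 genes tested, and a gene passes when the adjusted p is under 0.05.

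All 10 genes differed between the passages, 8 higher and 2 lower at passage 20, where 74.3% of all genes tested passed (37.0% higher and 37.3% lower). With library sizes only, without TMM factors, the 10 genes kept these calls, while the split over all genes went from 5604 higher and 5641 lower to 3528 and 8273. The 5 epithelial genes and Cdh2 rose, and the 4 repressors split into Snai1 and Zeb1, which rose, and Snai2 and Zeb2, which fell. The groups did not overlap in any of the 10 genes, as in 77.5% of all genes tested. Changes of at least 2-fold were called for 6 of the 10, 5 higher and 1 lower, and for 27.6% of all genes tested. In bulk RNA, a change in the number of cells that express a gene and a change in the RNA per cell cannot be told apart.

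**Figure D1:**
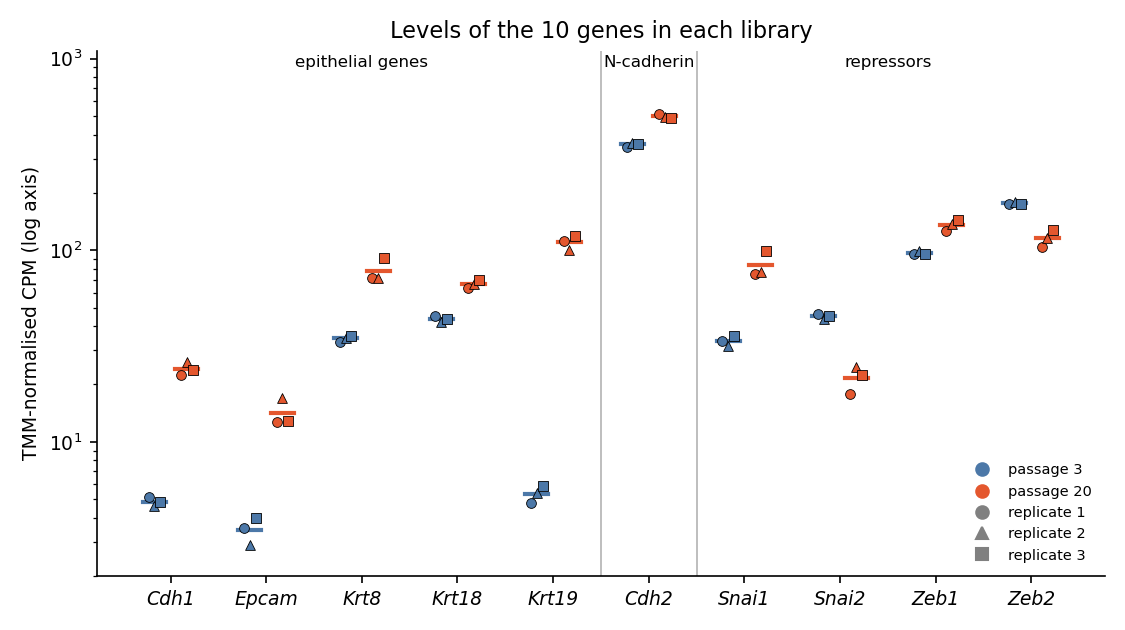
Level of each of the 10 genes in each library, as TMM-normalised CPM on a log axis. Points are libraries (shape gives the replicate number, which is not known to pair the passages), bars are means of 3, blue is passage 3 and orange passage 20. The largest gap is that of Krt19, from 5.37 to 110.1 CPM, and Snai2 and Zeb2 lie lower at passage 20.

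Cdh1 (ENSMUSG00000000303, GRCm38 chromosome 8, 106603351 to 106670246), the cadherin of epithelial adherens junctions, stood at 5.13, 4.62 and 4.85 CPM in the passage 3 libraries and at 22.4, 26.1 and 23.7 CPM in those of passage 20. Every passage 20 library exceeded every passage 3 library by more than 4-fold. The mean went from 4.87 ± 0.256 to 24.03 ± 1.87 CPM (SD, n = 3), a log2 fold change of 2.30 with a standard error of 0.11 (edgeR, adjusted p = 1.18e-08), and 6.33% of all genes tested changed as much or more. Its mean level per kilobase was nonetheless the lowest of the 10 genes at both passages.

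Epcam (ENSMUSG00000045394, chromosome 17, 87635979 to 87651129) encodes a homophilic adhesion molecule of epithelia and of pluripotent cells. It had 56, 47 and 79 counts at passage 3, or 3.55, 2.89 and 3.99 CPM, and 12.7, 17.004 and 12.9 CPM at passage 20. Passage 20 replicate 2 was the highest library for both Epcam and Cdh1. The rise was 2.01 ± 0.17 (log2 fold change ± SE; edgeR, adjusted p = 8.89e-07), 4.04-fold, and its standard error was the widest of the 10, with the fewest counts. The interval of the log2 change, 1.69 to 2.34, overlaps that of Cdh1, 2.09 to 2.52.

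The keratin genes rose by unequal amounts. Krt19 (ENSMUSG00000020911, chromosome 11, 100140810 to 100148665), a type I keratin of simple and ductal epithelia, stood at 4.81, 5.42 and 5.86 CPM at passage 3 and at 111.5, 99.8 and 119.0 CPM at passage 20. Its log2 change of 4.35 ± 0.10 (SE; edgeR, adjusted p = 1.37e-10) is 20.4-fold, and 0.905% of all genes tested changed as much or more. Krt8 (ENSMUSG00000049382, chromosome 15, 101996698 to 102004482), the type II partner, went from 33.1, 35.0 and 35.8 to 71.4, 71.4 and 91.5 CPM, 2.26-fold (log2 1.17 ± 0.10, adjusted p = 1.36e-06 by edgeR). Passage 20 replicate 3 was the highest for Krt8, and without it the log2 change was 1.02. Krt18 (ENSMUSG00000023043, chromosome 15, 102028180 to 102032027), the usual type I partner of Krt8, lies 23697 bases from it on the other strand and went from 45.2, 42.2 and 43.7 to 63.8, 66.6 and 69.6 CPM. That is 1.53-fold (log2 0.61 ± 0.06, adjusted p = 6.63e-06 by edgeR), a size reached by 46.7% of all genes tested, and a log2 change of 0.28 with library sizes only. Krt8 shares 101 exon bases with Gm36026 on the opposite strand, which had 4 counts in all.

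Per kilobase of exon, the keratin partners came to different proportions at the 2 passages. Within a library such a ratio does not depend on the scaling between libraries. At passage 3 the libraries held 0.0826, 0.0995 and 0.104 Krt19 counts per kilobase for each of Krt18, and at passage 20 1.35, 1.16 and 1.33, so that Krt19 moved from far below Krt18 to above it. Krt8 to Krt18 was 0.583 ± 0.0387 at passage 3 and 0.857 ± 0.0951 at passage 20 (n = 3). Set against both type I genes together, Krt8 went the other way, from 0.532 ± 0.0303 to 0.376 ± 0.0348. The groups did not overlap in any of these 3 ratios, which were chosen after values had been seen and carry no test.

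Cdh2 (ENSMUSG00000024304, chromosome 18, 16588877 to 16809246), N-cadherin of mesenchymal and cardiac cells, was the most abundant of the 10 genes per kilobase at both passages. It stood at 347, 365 and 358 CPM at passage 3 and at 516, 494 and 490.2 CPM at passage 20. Cdh2 therefore did not fall while Cdh1 rose: its log2 change was 0.49 ± 0.05 (edgeR, adjusted p = 3.4e-06), 1.40-fold, and 55.4% of all genes tested changed as much or more. With library sizes only the change was 0.16 and still passed. Per kilobase of all annotated exons, the libraries held 38.4, 44.8 and 41.9 Cdh2 counts for each of Cdh1 at passage 3. At passage 20 they held 13.1, 10.7 and 11.7. These proportions, but not their fold change, depend on the length used: Cdh2 has 8066 exon bases and 4843 in its longest coding transcript. The proportion of Cdh1 to Cdh2 thus rose 3.52-fold (log2 1.82, from a log2 mean of -5.38 ± 0.112 to -3.56 ± 0.142), with N-cadherin counts above those of E-cadherin in every library.

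**Figure D2:**
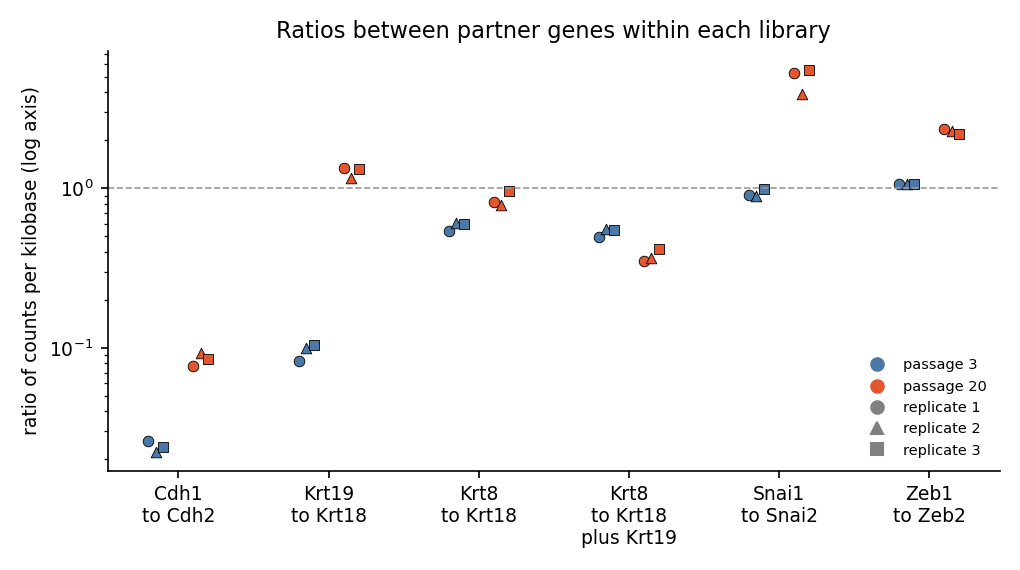
Ratio of counts per kilobase of exon between partner genes within each library, on a log axis, with the dashed line at 1 (equal counts per kilobase). Points are libraries, blue passage 3 and orange passage 20; Krt19 to Krt18 crossed 1 and Snai1 to Snai2 went from near 1 to between 3.94 and 5.55.

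The 2 Snail genes moved in opposite directions. Snai1 (ENSMUSG00000042821, chromosome 2, 167538195 to 167542814), whose product represses Cdh1 and is needed at gastrulation, stood at 33.8, 31.7 and 35.8 CPM at passage 3 and at 75.3, 77.3 and 99.5 CPM at passage 20. It rose 2.49-fold (log2 1.32 ± 0.11, adjusted p = 1.72e-06 by edgeR), and by a log2 of 1.16 without passage 20 replicate 3, its highest library. Snai2 (ENSMUSG00000022676, chromosome 16, 14705852 to 14709385), known from neural crest and valve mesenchyme, stood at 46.6, 43.9 and 45.2 CPM at passage 3 and at 17.8, 24.5 and 22.4 CPM at passage 20, 2.10-fold lower (log2 -1.07 ± 0.10, adjusted p = 2.63e-06 by edgeR). Passage 20 replicate 1 was the lowest library for Snai2. Per kilobase the libraries held 0.903, 0.899 and 0.986 Snai1 counts for each of Snai2 at passage 3, near equality, and 5.27, 3.94 and 5.55 at passage 20.

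The 2 Zeb genes split as well, by less. Zeb1 (ENSMUSG00000024238, chromosome 18, 5591860 to 5775467), a repressor with paired zinc finger clusters, went from 95.9, 98.5 and 95.7 to 126.1, 136.8 and 144.0 CPM, 1.40-fold (log2 0.49 ± 0.06, adjusted p = 2.04e-05 by edgeR). With library sizes only its change was 0.16 with an adjusted p = 0.0484, the largest p among all 10 genes and alternatives. Zeb2 (ENSMUSG00000026872, chromosome 2, 44983632 to 45117395), its relative with a role in neural crest, went from 173.8, 179.1 and 173.4 to 103.9, 116.1 and 127.9 CPM, 1.51-fold lower (log2 -0.60 ± 0.07, adjusted p = 1.57e-05 by edgeR; log2 -0.92 with library sizes only). The sizes of both were common: 55.2% of all genes tested changed as much as Zeb1 or more, and 47.7% as much as Zeb2. Zeb1 shares 198 exon bases with Gm10125 (76 counts in all) and Zeb2 653 with Zeb2os (15 counts in all), both on the opposite strand, and whether counting used strand is not stated. Zeb1 to Zeb2 per kilobase of all annotated exons was 1.07 ± 0.00151 at passage 3 and 2.28 ± 0.0860 at passage 20.

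**Figure D3:**
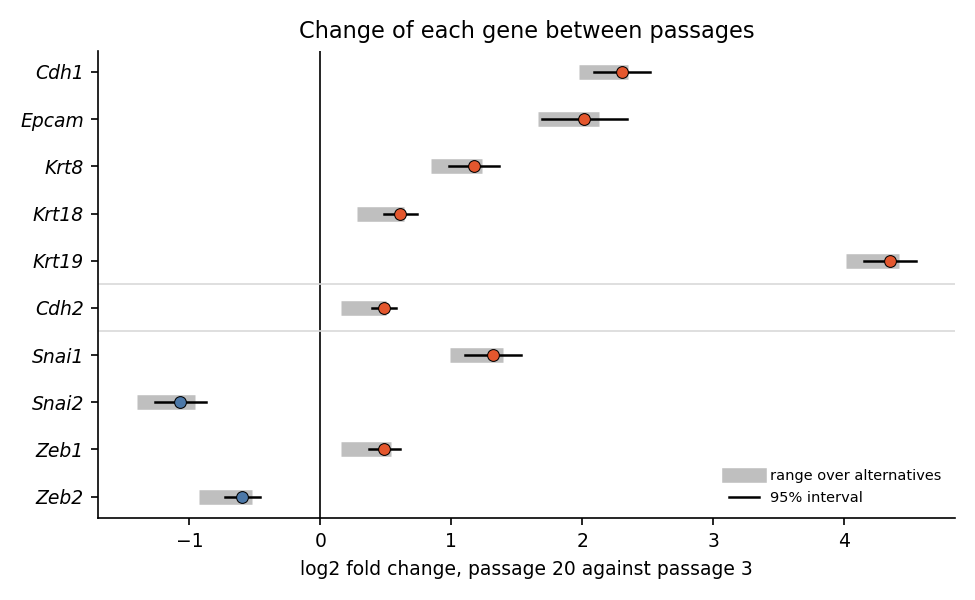
Log2 fold change of each of the 10 genes, passage 20 against passage 3 (edgeR). Points are the estimates, black lines nominal 95% intervals and grey bars the range over 16 alternatives. No grey bar reaches 0, and Cdh2 and Zeb1 come nearest to it at 0.16.

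The order of the 10 levels changed with passage. Per kilobase of all annotated exons at passage 3, Cdh2 led (44.2 ± 1.09 CPM per kilobase), followed by Krt18 (30.4), Snai2 (22.4), Snai1 (20.8), Krt8 (17.7), Zeb1 (9.42), Zeb2 (8.80), Krt19 (2.89), Epcam (1.58) and Cdh1 (1.06). The ranges of neighbours overlapped only between Snai2 and Snai1. At passage 20 Cdh2 (62.0 ± 1.74), Krt19 (59.4 ± 5.22), Snai1 (51.8 ± 8.28), Krt18 (46.4) and Krt8 (39.9) each overlapped the next in range, and Zeb1 (13.2) and Snai2 (10.7) stood apart below them. Epcam (6.47), Zeb2 (5.82) and Cdh1 (5.25) overlapped at the bottom. Among the levels per kilobase of all genes tested, Krt19 moved from percentile 36.2 to 94.7 and Cdh1 from 20.2 to 50.6, while Cdh2 lay at percentile 94.3 at passage 3 and in the top 10% at passage 20 too. Several of these genes, Zeb2, Zeb1 and Cdh2 among them, have exons outside their longest coding transcripts. With the longest coding transcript as length, Zeb2 (19.2 CPM per kilobase) stood above Zeb1 (16.7) and Krt8 (17.7) at passage 3. At passage 20 Zeb2 (12.7) stood below Zeb1 (23.4) but above Snai2 (10.7), Epcam (6.96) and Cdh1 (5.43). Cdh2 (103 ± 2.90) then stood apart from Krt19 (69.9 ± 6.14). The places of Zeb2, and which neighbours overlapped in range (those of Cdh2 and Zeb2 among them), thus depend on the length used. Cdh2 led and Cdh1 was last at both passages with either length.

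Of 25 other genes of epithelial junctions 21 were tested: 14 were higher, 3 lower and 4 did not pass, with a median log2 change of 0.70 against -0.01 over all genes tested. Among all genes tested 37.0% were higher and 37.3% lower. Pkp2, a desmosomal plakophilin of epithelia and heart muscle, went from 50.3 ± 1.17 to 144 ± 3.02 CPM (2.86-fold), and Ppl, the plakin periplakin, from 4.47 ± 0.614 to 25.9 ± 2.35 CPM (5.74-fold). Dsc2, a desmosomal cadherin, fell from 48.4 ± 4.74 to 32.6 ± 1.29 CPM. The largest adjusted p of these 3 was 8.63e-05 by edgeR. With library sizes only, 10 rose and 5 fell, and 5 fell without passage 20 replicate 3.

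Epithelial surface and protease genes rose in 7 of 9 tested of 13 listed, with a median of 1.25, and 2 did not pass. For comparison, 37.0% of all genes tested were higher and 37.3% lower. By edgeR 0 fell, with 1 lower at an unadjusted p under 0.05, 0 lower by DESeq2, 1 lower by limma on the deposited log2 values, 1 with upper-quartile factors or a filter of 1 CPM, and 2 with library sizes only. Spint2, a Kunitz inhibitor of membrane serine proteases, went from 8.61 ± 1.39 to 29.6 ± 3.14 CPM (3.41-fold), and its target matriptase, St14, from 4.24 ± 0.609 to 12.03 ± 0.607 CPM (2.81-fold; larger adjusted p of both 2.11e-06 by edgeR). Of 16 regulators of epithelial identity 10 were tested, 6 of them higher, 1 lower and 3 that did not pass, with a median of 0.77. In either direction 74.3% of all genes tested passed, so the number of regulators called is near that share. The zinc finger genes Klf4 and Klf5 rose 2.94-fold and 2.89-fold, Klf4 from 16.9 ± 0.530 to 49.6 ± 4.08 CPM. Grhl1, a grainyhead factor of surface epithelia, fell from 7.21 ± 0.408 to 2.96 ± 0.622 CPM (adjusted p = 3.61e-05 by edgeR). Grhl2, Ovol1 and Ovol2, named after their values were seen as known activators of Cdh1 or repressors of Zeb1, had too few counts to be tested (7, 4 and 5 counts at passage 3 and 18, 15 and 4 at passage 20, each over 3 libraries).

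Other keratins were mostly at few counts. Of 13 listed only 4 had enough counts to be tested, of which 2 (Krt14 and Krt17) were lower and 2 (Krt7 and Krt10) did not pass, where 37.3% of all genes tested were lower. By edgeR 0 were higher (0 at an unadjusted p under 0.05, by DESeq2 or by limma, and 1 without the low-count filter). Krt14, a keratin of basal cells in stratified epithelia, fell from 18.03 ± 0.227 to 1.05 ± 0.873 CPM, 16.1-fold (log2 -4.01, adjusted p = 8.82e-07 by edgeR). Passage 20 replicate 3 was the highest of its passage at 2.06 CPM, and without it the log2 change of Krt14 was -5.04. Krt13, named after its counts were seen and too low to be tested, had 0 counts in each passage 3 library and 5, 6 and 5 at passage 20. Krt4 and Krt6a had 0 counts in all libraries.

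Other cadherins and catenins moved both ways. Of 16 listed and 14 tested, 5 were higher, 7 lower and 2 did not pass, with a median of -0.21. The shares over all genes tested were 37.0% higher and 37.3% lower. With library sizes only 1 rose and 9 fell, and 3 rose without passage 20 replicate 1, with upper-quartile factors, or at an adjusted p under 0.01. Cdh4, R-cadherin, went from 44.4 ± 5.14 to 1.82 ± 0.377 CPM, 24.3-fold lower, and the mesenchymal cadherin gene Cdh11 from 594 ± 5.06 to 347 ± 32.8 CPM (larger adjusted p of both 9.89e-07 by edgeR). The adaptors Ctnna1 and Ctnnd1, which link cadherins to actin and hold them at the membrane, rose 1.12-fold and 1.19-fold (larger adjusted p 0.00689 by edgeR), but with library sizes only their log2 changes turned from 0.16 and 0.25 to -0.17 and -0.08. Ctnnd1 shares 4482 exon bases with Gm28635 on the same strand, so its count is uncertain.

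**Figure D4:**
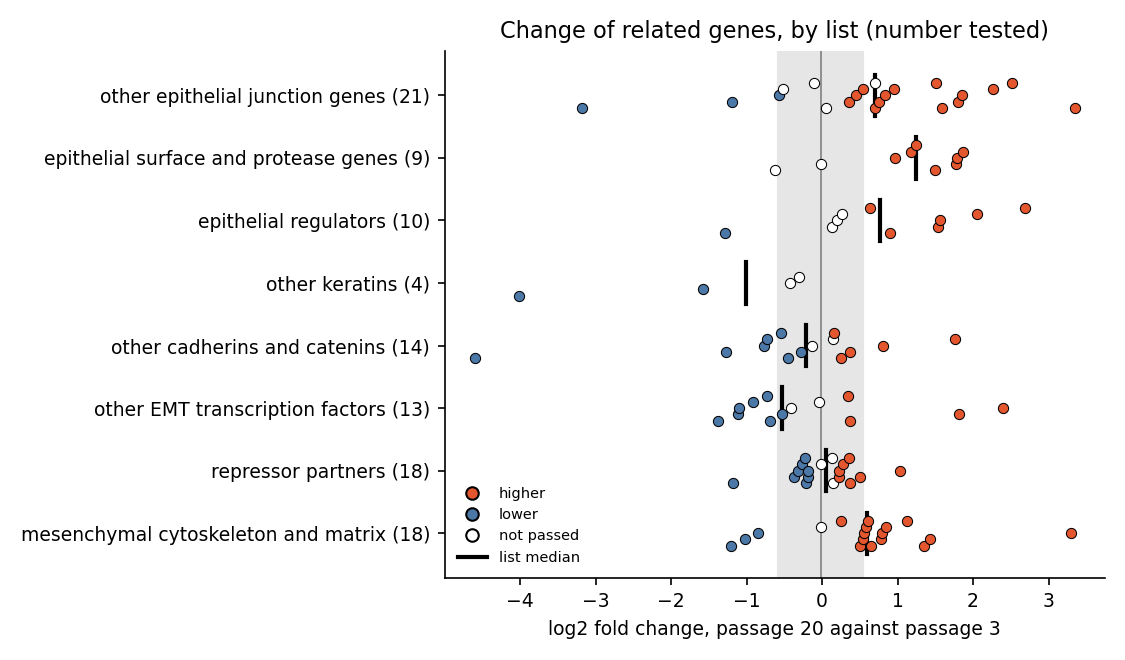
Log2 fold change, passage 20 against passage 3, of each tested gene in the 8 related lists. Orange points rose, blue points fell and white points did not pass; black bars are list medians and the grey band spans the quartiles of all genes tested, -0.58 to 0.54, and the medians of the junction (0.70) and surface (1.25) lists lie above that band.

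Of 14 other transcription factors of EMT 13 were tested, 7 of them lower, 4 higher and 2 that did not pass, beside 37.3% lower and 37.0% higher over all genes tested. Their median of -0.54 lies within the quartiles of all genes tested, -0.58 to 0.54, and with library sizes only 9 were lower and 2 higher. Twist1, a basic helix-loop-helix factor of mesoderm, went from 155 ± 7.70 to 71.5 ± 2.19 CPM (2.16-fold lower), and its relative Tcf4 (E2-2) from 233 ± 4.16 to 124 ± 3.71 CPM. Foxc1 and Foxc2, forkhead factors of mesenchyme, rose 3.51-fold and 5.25-fold from 3.38 ± 0.777 and 2.71 ± 0.314 CPM. The largest adjusted p of these 4 was 5.44e-06 by edgeR.

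Partners of the repressors were tested in full. Of 18 genes for corepressors and for enzymes that stabilise or degrade Snail, 7 were higher, 8 lower and 3 did not pass, with a median of 0.06 (2 higher and 11 lower with library sizes only, 5 lower at an adjusted p under 0.01). That split is near the one over all genes tested, 37.0% higher and 37.3% lower. Eed and Sin3a, of the Polycomb and Sin3 corepressor complexes, rose 2.04-fold and 1.42-fold. Ctdsp1, a small phosphatase that acts on Snail, fell from 107 ± 3.04 to 46.8 ± 8.50 CPM (2.27-fold), and Fbxo11, a ubiquitin ligase subunit for Snail, 1.30-fold (largest adjusted p of the 4, 7.23e-05 by edgeR). Fbxo11 shares 34 exon bases with Msh6 on the opposite strand.

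Of 19 listed genes of the mesenchymal cytoskeleton and matrix 18 were tested, 14 of them higher, 3 lower and 1 that did not pass, with a median of 0.60 (over all genes tested, 37.0% were higher and 37.3% lower). Vim, the mesenchymal intermediate filament vimentin, went from 1165 ± 25.3 to 2959 ± 209 CPM (2.54-fold). Mmp14, a membrane matrix protease, and Thy1, a fibroblast surface protein, fell 2.04-fold and 2.30-fold (largest adjusted p of the 3, 7.1e-05 by edgeR). Vim and the 3 keratin members were all higher at passage 20.

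Markers of other cells were read beside these changes, and their counts beside the shares over all genes tested, 37.0% higher and 37.3% lower. Among 9 markers of pluripotency, a state in which Cdh1 and Epcam are also expressed, 6 of 8 tested were higher and 1 lower. The lower one was Dppa5a, from 2.32 to 0.490 CPM, and none was without counts. Zfp42, not tested, had 18 counts at passage 3 and 2 at passage 20. Lin28a, from 3.12 to 18.3 CPM, and Pou5f1, from 2.16 to 13.2 CPM, made up most of the rise in the sum. The summed level of these 9 markers ran from 17.2 to 19.2 CPM at passage 3 and from 52.3 to 63.6 at passage 20. That of 8 endoderm markers ran from 10.5 to 12.4 and from 4.45 to 6.41 CPM (2 lower of 3 tested, 1 that did not pass), that of 8 mesothelial and epicardial markers from 17.3 to 19.0 and from 12.5 to 16.6 (2 higher and 3 lower of 6), and that of 7 surface epithelium markers from 35.2 to 36.5 and from 27.3 to 29.2 (Krt14 lower, Perp higher and 1 not passed of 3). Of 8 trophoblast markers 6 were tested, 3 higher and 1 lower, with sums of 162 to 176 and 102 to 138 CPM and Psg23 at 0 counts. The lower one was Eomes, at 121 CPM at passage 3 and 28.5 at passage 20, which alone exceeds the fall of the sum, while Hand1 went from 34.1 to 71.9 CPM. The 9 fibroblast markers summed to between 10369 and 10965 CPM and then to between 19725 and 23598 (6 higher and 3 lower). Most of that rise was Col1a1, at 4353 CPM at passage 3 and 12540 at passage 20, whereas Pdgfrb, Thy1 and Prrx1 fell. Sums ran from 20.3 to 21.4 and then from 28.6 to 31.0 CPM for 7 cardiomyocyte markers (3 higher and 2 lower of 5 tested). Actc1 alone, at 9.12 CPM at passage 3 and 21.0 at passage 20, exceeds the rise of that sum. For 5 smooth muscle markers sums ran from 838 to 906 and then from 809 to 836 CPM (1 higher and 3 lower). Most of these sums was Acta2, at 796 CPM at passage 3 and 788 at passage 20, which did not pass. Mylk fell from 56.6 to 8.01 CPM and Myh11 from 4.84 to 1.12, while Cnn1 rose from 15.6 to 20.1. Endothelial markers summed to 23.5 to 27.1 and then 19.5 to 21.7 CPM (2 higher and 2 lower of 5 tested), macrophage markers to 8.44 to 10.4 and then 11.9 to 13.6 (2 higher of 4 tested, 2 that did not pass), and neural markers to 94.7 to 100.2 and then 88.5 to 109 (Tubb3 higher, and 2 lower, Stmn2 among them, of 3 tested). Ptprc of leukocytes and Emcn of endothelium had 0 counts in all libraries. The part of these cells in the changes of the 10 genes was not tested.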

How the data were processed

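RNA sequencing counts of 3 libraries at passage 3 and 3 at passage 20 were used. Per the submitters' processing notes, the tools were HTSeq, HISAT2 2.0.5, DESeq2 and SAMtools and the build GRCm38; what each did, which annotation was used and whether counting used strand are not stated there. The tested values are the counts per gene that the authors deposited, as whole numbers, and an alternative used values on a log2 scale, which the authors deposited beside them with no statement of the transformation. GENCODE M21 on GRCm38 gave names, positions and exon lengths for 53706 of 53801 identifiers; the other 95 took 0.00623% of counts. Genes with few counts were removed with filterByExpr, leaving 15143, and tested with edgeR 4.0.16 (TMM factors, robust quasi-likelihood test, Benjamini-Hochberg adjustment) in R 4.3.3. The standard error is the log2 change divided by the root of F. Intervals are nominal 95% intervals from a normal quantile. With 3 libraries a group they are narrower than the F test would give. Levels between genes are CPM per kilobase of all annotated exons. The test was run on simulated data, where it missed some of the smallest changes (55 of 67 at 1.5-fold were recovered). There 21 of 207 calls were false, a share above the threshold. Far fewer genes were changed in the simulation than were called in these data, so it does not give the error rate here. The members and lists were chosen with earlier results of these data known. The rule for names took all members and, from each related list, up to 2 called genes per direction with the smallest adjusted p and at least 5 CPM in the higher group; 1 gene that the rule names is not reported here. Alternatives were other scaling factors, DESeq2 1.42.0, limma 3.58.1, other filters, a block, a threshold of 0.01 and each library left out; thinning to 11387738 counts and lengths of longest coding transcripts were chosen after seeing the data. Promoter sequence of chromosome 18 was not used here.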

Additional observations from a re-analysis of the deposited data

How the results depend on the processing

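Each of the 10 genes kept its direction and passed in all 16 alternatives. With library sizes only, the median log2 change of all genes moved by -0.33, to -0.34, and genes called were 3528 higher and 8273 lower, against 5604 and 5641; calls in the 8 related lists went from 57 higher and 31 lower to 40 and 44, and the log2 changes of Ctnna1 and Ctnnd1 turned to -0.17 and -0.077. The log2 change of the Cdh1 to Cdh2 ratio was 1.51 in the authors' deposited log2 values, against 1.82, and between 1.75 and 1.89 with single libraries left out. With single libraries left out, genes called ranged from 5289 to 6103 higher and from 5244 to 6266 lower. Of 400 fits of the 25 named related genes, 396 kept direction and call, 2 of Ctnna1 were lost (upper-quartile factors and no low-count filter) and 2 turned. No pairing of the passages by replicate number was seen: deviations of same-numbered libraries correlated at 0.014, -0.027 and 0.045, and not every library correlated best with its own number. With 3 libraries a passage these values cannot decide whether same-numbered libraries were related. With the replicate block 5521 genes were higher and 5582 lower, and the members stayed at 8 and 2. Counting error limits Epcam and Cdh1 most, with 182 and 252 counts at passage 3 in all.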
